A study of Mus musculus with 14 samples.

Results

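Wild-type Cdk6 progenitor lines carrying the p210 form of BCR-ABL were compared here with the same kind of lines before transformation. The libraries were chosen by their titles alone, which gave 3 p210 and 4 untransformed libraries, 7 of the 14 in the series. All are mouse HPC-LSK cultures, immortal haematopoietic progenitor lines like the LSK cells of bone marrow, which lack lineage markers and carry Sca-1 and Kit, of strain background C57BL/6N and genotype CDK6 WT. The untransformed cultures were fed 12.5 ng/ml IL-6 and 2% SCF, and the p210 cultures grew without either cytokine, so transformation and medium cannot be told apart in any value below. All 3 p210 libraries and untransformed replicate 1 were read on 1 flow cell each, and untransformed replicates 2, 3 and 4 on 2. State and flow cell layout therefore overlap in large part, and layout was not tested as a cause. The letters SCF stand in the descriptions of the p210 libraries, and what they mean there is not settled by the labels. A code and letter in the descriptions name the line: p210 replicates 1, 2 and 3 belong to the lines of untransformed replicates 1, 2 and 3, called lines 1, 2 and 3 below, and untransformed replicate 4 has no p210 partner. Whether replicates were derived separately is not stated, so a p-value here measures the spread among these libraries, which may be partly technical. As background, HPC-LSK lines are made by introducing Lhx2, and all 7 cultures would carry it.

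BCR-ABL p210 is the fusion kinase of chronic myeloid leukaemia. Its ABL kinase is constantly active, and through adaptors such as GRB2 and GAB2 it signals to the RAS-MAPK cascade, to PI3K and AKT, and to STAT5. In haematopoietic progenitors these routes are normally opened by cytokine receptors such as KIT, the receptor for SCF, and the kinase is known for letting such cells grow without added cytokine.

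The 7 libraries held 20270348 to 49190596 counts, 18726 to 20689 detected genes and 1.48% to 2.13% mitochondrial counts. Values below are CPM, a gene's counts relative to its library's scaled total, in the order of the lines, with means as mean ± SD (n = 4 untransformed, n = 3 p210). A principal component analysis of the 500 most variable genes put the 3 p210 and the 4 untransformed libraries on opposite sides of its first axis, which held 65.1% of the variance. Untransformed replicate 3 and p210 replicate 3, of the same line, lay apart from the others on the second axis, at -27.6 and -36.7. Untransformed replicate 3 also held the most of the mast cell protease Mcpt4, which was at 19.9, 10.9, 1294 and 0.201 CPM in the 4 libraries, and the least of the neutrophil granule enzyme Mpo, at 5634, 2877, 38.4 and 1873 CPM. Both genes were picked after their values were seen. Of the LSK markers, Kit was at 359.9 to 471 CPM, Cd34 at 696 to 1367 CPM, Ptprc (CD45) at 259 to 364 CPM and Ly6a (Sca-1) at 13.6 to 112 CPM in the untransformed libraries. Transcripts of Kit and Sca-1 were thus present, Ly6a least evenly. The lack of lineage markers was not shown by these counts. Summed levels there were 1043 to 13237 CPM for neutrophil and monocyte genes and 5443 to 12932 CPM for megakaryocyte and platelet genes. They were 5052 to 11115 CPM for mast cell and basophil genes and 139 to 266 CPM for B and T lymphoid genes. Lhx2 was at 1992, 3135, 2626 and 2148 CPM before and 2017, 4199.8 and 2278 CPM after transformation, with no call (adjusted p = 0.723), and introduced and endogenous Lhx2 cannot be separated by these counts. In bulk RNA, fewer cells of a type and less RNA per cell cannot be told apart.

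Transformed lines differed from untransformed lines in a large share of the transcriptome. Of 14512 genes tested, 5727 (39.5%) passed edgeR's quasi-likelihood test at an adjusted p under 0.05: 3173 (21.9%) were higher and 2554 (17.6%) lower with p210. Changes of at least 2-fold numbered 1433 higher (9.87%) and 744 lower (5.13%), and 427 rose and 209 fell by 3 or more on the log2 scale. The p210 and untransformed libraries did not overlap in 6533 genes (45%), 3404 of them higher (23.5%) and 3129 lower (21.6%) with p210. Of the 5727 called genes 5224 did not overlap, and the largest changes were named only where the groups did not overlap. No overlap in a called gene named below is therefore no further support. The median log2 fold change over all tested genes was 0.02. Of the called genes, 5543 (96.8%) moved in the same direction in each of the 3 paired lines. The split depends on scaling: library size scaling, which moves the median of all genes from 0.02 to -0.10, gave 2516 higher and 3471 lower, and upper quartile scaling 2709 higher and 3265 lower. With the line as a block, which is the fit that uses the pairing, 2167 genes were higher and 1661 lower over all 14 libraries, and 348 and 246 when the 7 wild-type libraries were fitted alone with that block, called the 7-library paired fit below. Within the libraries of lines 1 and 2, which share a code in the descriptions, 2004 genes were higher and 1721 lower, and within those of the other code, with line 3 and untransformed replicate 4, 1003 and 563. Of the called genes named below, 134 were tested in the 7-library paired fit, 91 lost their call there and all had the same direction. Those that passed there were Adgrl4, Arhgap32, Bax, Brca2, Ccl6, Ccnd2, Ccng1, Cdkn1a, Cdkn2b, Cish, Crisp1, Csf1, Cyp11a1, Dnajb1, Dock1, Egfl7, Etv6, Ezh2, Flt3, Foxo4, H2-DMa, Il6, Itgav, Jak3, Kit, Lif, Lig1, Mdc1, Osm, Pdcd1, Pola1, Polk, Ppox, Prim2, Psmb9, Sesn2, Sfrp2, Socs1, Socs2, Socs3, Stat5a, Tcrg-C1 and Xbp1.

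**Figure D1:**
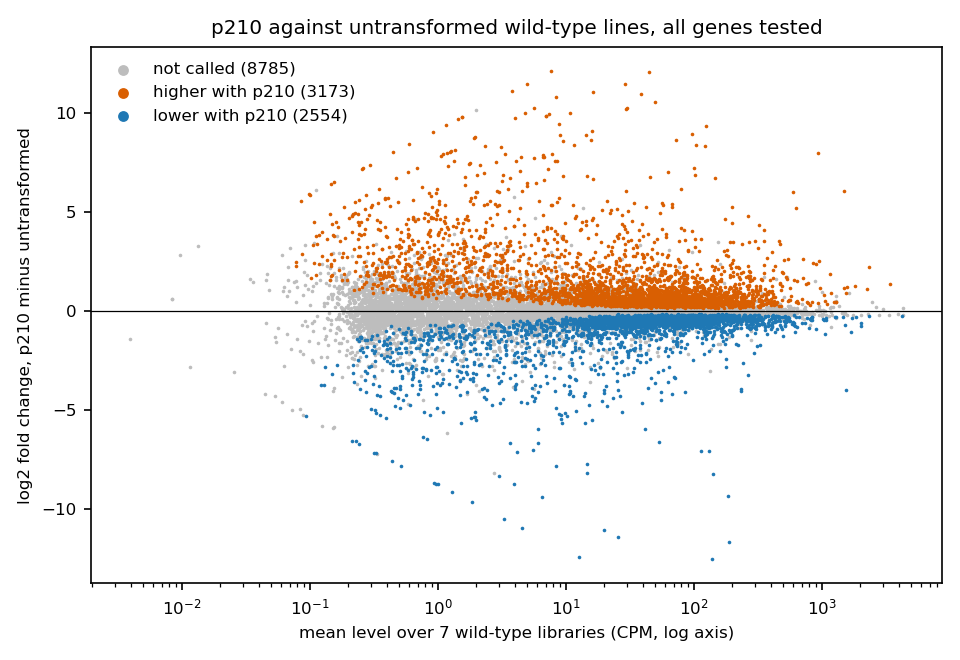
Mean level over the 7 wild-type libraries (CPM, log axis) against the fitted log2 fold change, p210 minus untransformed, for each of the 14512 genes tested. The 3173 genes called higher are orange, the 2554 called lower blue and the others grey; changes of 3 or more on the log2 scale lie more often above 0 (427) than below (209).

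Transcripts counted to both parent genes of the fusion were higher. Bcr was at 76.04, 70.6, 64.9 and 69.9 CPM in the untransformed libraries and at 235, 168 and 308 CPM in the p210 libraries, a log2 fold change of 1.75 ± 0.16 (SE, adjusted p = 1.66e-05). Abl1 went from 215, 231, 214 and 235 CPM to 471, 358 and 591 CPM (1.08 ± 0.13, adjusted p = 9.87e-05). In the 7-library paired fit neither passed (Bcr adjusted p = 0.0501, Abl1 adjusted p = 0.0565). The groups do not overlap for either gene, and in both p210 replicate 3 was highest and p210 replicate 2 lowest. Reads of an introduced fusion and of the mouse genes cannot be separated by these counts. Of 28 fusion partner and adaptor genes, 9 rose and 5 fell, against 21.9% and 17.6% of all tested genes, with a median of 0.17 (0.10 without p210 replicate 2). Gab3, a docking protein that recruits PI3K and SHP2, stood at 3.1, 2.61, 1.89 and 2.41 CPM before and 8.92, 19.2 and 21.6 CPM after (2.73 ± 0.30, adjusted p = 5.73e-05). Gab2, the docking protein through which p210 reaches PI3K, rose from 91.7 ± 9.54 to 135 ± 16.6 CPM (0.56 ± 0.11, adjusted p = 0.00177). The E3 ligase Cbl and the phosphatase Ptpn6 (SHP1) did not pass, at -0.04 ± 0.10 and 0.29 ± 0.13. The number that fell was 2 with the line as a block, 1 without p210 replicate 3, 2 without untransformed replicate 2 or p210 replicate 2 and 3 without untransformed replicate 4; 0 rose and 0 fell in the 7-library paired fit.

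STAT5 target and feedback genes held some of the clearest rises. Socs2, a feedback inhibitor of cytokine receptors, was at 2.47, 4.89, 5.77 and 2.71 CPM in the untransformed and 154, 132 and 172 CPM in the p210 libraries (5.26 ± 0.29, adjusted p = 1.05e-06). Cish, of the same inhibitor family, was at 9.3, 13.7, 10.7 and 8.2 and 207, 156 and 185 CPM (4.12 ± 0.39, adjusted p = 2.54e-05). Socs1, which also binds the JAK kinases, was at 1.39, 1.34, 2.03 and 1.61 and 22.6, 18.4 and 19.04 CPM (3.65 ± 0.45, adjusted p = 0.000118). In these 3 genes the p210 libraries lie close to each other and far above every untransformed library. Lif, a cytokine of the IL-6 family, went from 2.92, 2.28, 2.91 and 2.03 to 66.4, 110.4 and 109 CPM (5.24 ± 0.59, adjusted p = 7.71e-05), with the lowest p210 value in line 1. Ccnd2, a D-type cyclin, rose from 242 ± 37.3 to 522 ± 57.03 CPM (1.11 ± 0.15) and Bcl2l1, which encodes BCL-XL, from 72.4 ± 14.2 to 116 ± 13.8 CPM (0.68 ± 0.17). In all, 11 of 24 rose and 4 fell, with a median of 0.51, and the number that fell was 2 without p210 replicate 2; 6 rose and 1 fell in the 7-library paired fit. Mcl1 (-0.24 ± 0.11) and the cytotoxic protease Gzmb (3.47 ± 1.68) did not pass; Gzmb was at 35.7, 3.4, 50.9 and 26.6 CPM before and 177, 6.69 and 785 CPM after, with the 3 p210 lines far apart.

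Not every member of the STAT5 list rose, and the 2 members found with a STAT motif in their promoter window were among those that fell. The motif TTCNNNGAA, which reads the same on both strands, was searched in the 250 bases before each gene start (RefSeq, GRCm38.p6) and lies in 7.27% of the promoters of tested genes with an entry and in 2 of the 17 list members found there. The windows of these genes are shown because both fell while Socs2 and Cish rose, with the motif in capitals and 20 bases on each side:
Socs3 (chr11:117969492-117969540, - strand): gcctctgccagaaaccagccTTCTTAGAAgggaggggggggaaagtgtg
Bcl6 (chr16:23981343-23981471, - strand): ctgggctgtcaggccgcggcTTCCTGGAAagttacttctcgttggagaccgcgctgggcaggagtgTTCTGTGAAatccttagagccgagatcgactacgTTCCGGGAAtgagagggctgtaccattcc
Socs3, the inhibitor that acts on the IL-6 receptor chain gp130, went from 51.9, 40.8, 41.5 and 42.8 to 34.6, 25.5 and 24.7 CPM (-0.65 ± 0.21, adjusted p = 0.0268). Bcl6, a transcriptional repressor, went from 20.2, 21.6, 23.999 and 21.9 to 3.48, 5.85 and 11.1 CPM (-1.70 ± 0.40, adjusted p = 0.00579). Neither gene's groups overlap in these libraries. The call of Socs3 was lost without untransformed replicate 1 (adjusted p = 0.0564) or p210 replicate 2 (adjusted p = 0.0894) or 3 (adjusted p = 0.0878). A match describes the letters of the window and is not a binding site. The search covered 17 of the 24 list members tested, so Socs2 and Cish are not shown here to lack the motif. Socs3, Bcl6 and Bcl2l1 were named after their values were seen.

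Of 11 JAK and STAT genes, 4 rose and 4 fell (36.4% each), against 21.9% and 17.6% of all tested genes. Jak3, the kinase of the common gamma chain receptors, fell from 177, 214, 213 and 195 CPM to 66.6, 50.9 and 67.2 CPM (-1.70 ± 0.14, adjusted p = 9.58e-06), with no overlap. Jak2, the kinase of the erythropoietin and IL-3 receptors, rose from 152 ± 5.73 to 267 ± 72.9 CPM (0.82 ± 0.14, adjusted p = 0.000881). Stat5a fell (-0.85 ± 0.12, adjusted p = 0.000325) and Stat2, a component of the interferon-induced complex ISGF3, rose (1.05 ± 0.17, adjusted p = 0.000548). Jak1 did not pass (-0.01 ± 0.10). The number that rose was 2 with the line as a block and 2 without p210 replicate 3; the number that fell was 2 without untransformed replicate 2 or p210 replicate 1 or 2, and 0 rose and 2 fell in the 7-library paired fit.

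**Figure D2:**
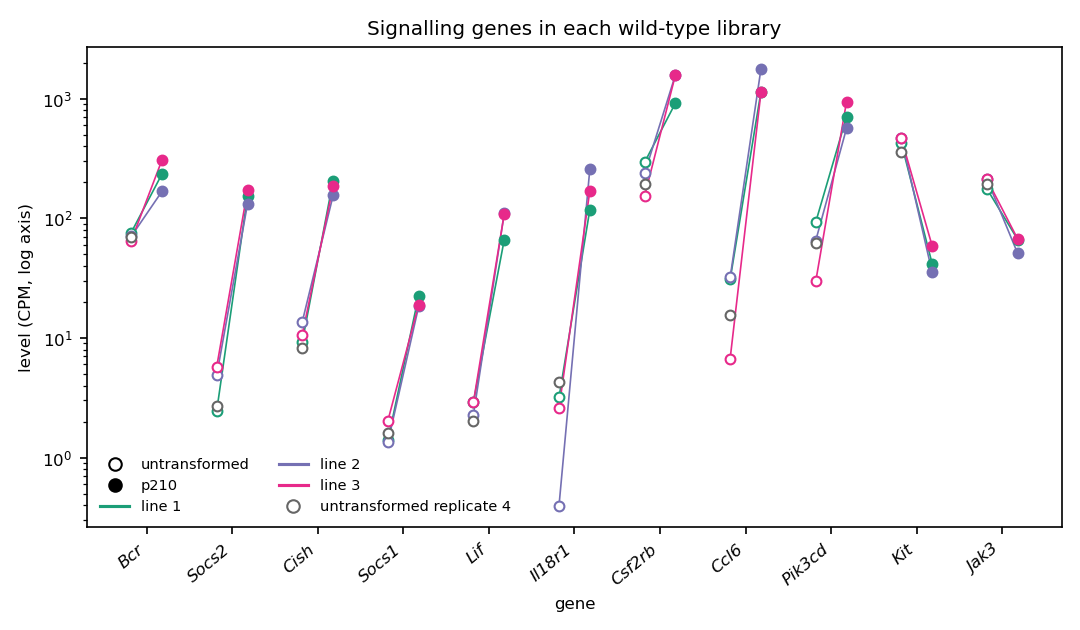
Level of 11 signalling genes in each wild-type library (CPM, log axis), with open circles for untransformed and filled circles for p210 libraries, and a line joining the 2 libraries of each of the 3 paired lines; untransformed replicate 4 is grey. Bcr, Socs2, Cish, Socs1, Lif, Il18r1, Csf2rb, Ccl6 and Pik3cd lie higher in all 3 p210 libraries, and Kit and Jak3 lower.

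Among 39 receptor genes for cytokines and growth factors, 10 rose (25.6%) and 9 fell (23.1%), against 21.9% and 17.6% of all tested genes. Kit, the SCF receptor, stood at 428, 471, 467 and 359.9 CPM in the untransformed libraries and 41.9, 35.5 and 59.1 CPM in the p210 libraries (-3.25 ± 0.31, adjusted p = 2.99e-05). Flt3, another receptor kinase of early progenitors, fell (-2.50 ± 0.63, adjusted p = 0.0084), as did Il1rap, the shared co-receptor of IL-1 and IL-33 (-1.09 ± 0.18, adjusted p = 0.0008). Il18r1, a chain of the IL-18 receptor, went from 3.19, 0.397, 2.61 and 4.27 CPM to 118, 258 and 169.8 CPM (6.15 ± 0.56, adjusted p = 2.25e-05). Csf2rb, the shared beta chain for IL-3, GM-CSF and IL-5, which has a near copy in Csf2rb2 that may share reads with it, went from 294, 238, 154 and 196 CPM to 920.0, 1586 and 1581 CPM (2.63 ± 0.28, adjusted p = 4.74e-05). Il10ra rose too (2.26 ± 0.23, adjusted p = 3.93e-05). For each of these 6 genes the groups do not overlap. The median of the list was -0.24, and it was -0.09 without untransformed replicate 1 and 0.33 within the code of line 3. The number that rose was 4 with the line as a block and 5 without p210 replicate 3; 0 rose and 3 fell in the 7-library paired fit. Tgfbr2 (-0.08 ± 0.23) and Igf1r (-0.24 ± 0.26) did not pass.

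Transcripts of several secreted cytokines were higher in the cells grown without added cytokine. Hgf, the ligand of the MET receptor, went from 68.3, 66.99, 49.5 and 73.01 CPM to 181, 449.5 and 521 CPM (2.57 ± 0.39, adjusted p = 0.000387). Csf1, the macrophage growth factor, went from 6.29, 4.44, 2.69 and 2.23 CPM to 53.9, 66.8 and 38.2 CPM (3.77 ± 0.73, adjusted p = 0.00187). Il6, whose protein was added to the untransformed cultures only, went from 3.64, 2.44, 10.6 and 5.62 CPM to 31.2, 45.3 and 127 CPM (3.60 ± 0.68, adjusted p = 0.00158). Every p210 library was above every untransformed library in these 3 genes, with Il6 highest in line 3. Osm, another IL-6 family cytokine, was at 268, 20.7 and 75.7 CPM in the p210 lines, highest in line 1 and lowest in line 2 (4.16 ± 1.02, adjusted p = 0.00745). Of 27 ligand genes 13 rose and 1 fell, with a median of 1.13, and 6 rose and 0 fell in the 7-library paired fit. Tgfb1 (-0.25 ± 0.12) and Igf1 (3.32 ± 1.38) did not pass. Csf1 and Osm were named after their values were seen.

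Among chemokines, Ccl6, which myeloid cells secrete, went from 30.9, 32.1, 6.73 and 15.5 CPM to 1148, 1782 and 1134 CPM (5.99 ± 0.60, adjusted p = 3.86e-05). The lowest p210 library lies far above the highest untransformed library, and untransformed replicate 3 is lowest. Of 19 chemokine genes 9 rose and 0 fell, with a median of 1.86 that was 0.45 without p210 replicate 1, but most were low: Cxcl3 was at 6.22, 2.08 and 3.05 CPM and Ccl8 at 8.7, 0.168 and 25.4 CPM in the p210 lines. With the line as a block 4 rose, 1 rose and 0 fell in the 7-library paired fit, and 3 rose under limma-voom, where Cxcl3 (adjusted p = 0.0665) and Ccl8 (adjusted p = 0.107) lost their calls. The platelet chemokines Pf4 (-0.17 ± 0.38) and Ppbp (-1.43 ± 1.10) did not pass.

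Of 33 feedback and immediate early genes of the RAS-MAPK cascade 8 rose (24.2%), near the share over all genes, and 0 fell. Their median was 0.21, and with 1 wild-type library left out it ran from 0.01 (without untransformed replicate 3) to 0.16 (without p210 replicate 3), being 0.02 without untransformed replicate 1 or p210 replicate 2, 0.04 without p210 replicate 1, 0.14 without untransformed replicate 2 and 0.12 without replicate 4, against 0.02 over all genes. Dusp5, a nuclear phosphatase that inactivates ERK, went from 16.7, 18.9, 2.72 and 5.75 CPM to 54.9, 50.2 and 57.8 CPM (2.30 ± 0.49, adjusted p = 0.00338). Its cytoplasmic relative Dusp7 went from 18.2 ± 1.75 to 34.3 ± 5.15 CPM (0.91 ± 0.15, adjusted p = 0.000538). Spry4, an inhibitor of receptor kinase signalling, rose from 1.19 ± 0.575 to 4.13 ± 0.602 CPM (1.79 ± 0.41, adjusted p = 0.00472). Spred1 (-0.44 ± 0.23) and Jund (-0.05 ± 0.19) did not pass. With the line as a block 5 rose, and 0 rose and 0 fell in the 7-library paired fit.

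In a list that joins PI3K pathway genes and FOXO targets more genes rose than fell, though not in the 7-library paired fit. Its counts are therefore not those of the PI3K pathway alone. Pik3cd, the catalytic subunit of leukocytes, was at 93.1, 65.2, 29.7 and 62.8 CPM in the untransformed and 707, 567 and 946 CPM in the p210 libraries (3.56 ± 0.35, adjusted p = 3.04e-05), with no overlap. Sesn2, a stress-induced restraint on mTORC1, went from 22.1, 17.1, 15.7 and 16.2 CPM to 48.7, 50.9 and 54.99 CPM (1.54 ± 0.12, adjusted p = 7.21e-06). Trib3, a pseudokinase that binds AKT, rose (2.87 ± 0.43, adjusted p = 0.000412), and Foxo4, a forkhead factor that AKT inactivates, fell from 41.2 ± 4.02 to 22.001 ± 2.77 CPM (-0.90 ± 0.16, adjusted p = 0.000861). Akt1 (0.21 ± 0.09) and the FOXO target Txnip (-0.13 ± 0.19) did not pass. Over 34 PI3K pathway and FOXO target genes 15 rose and 4 fell, with a median of 0.26 (0.15 without p210 replicate 3, 0.14 under library size scaling); 1 rose and 2 fell in the 7-library paired fit, and 9 rose with the line as a block, 9 under library size scaling, 7 without p210 replicate 3 and 9 without untransformed replicate 1 or p210 replicate 2.

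DNA replication genes were lower. Of 40 tested, 34 fell and 0 rose, with a median of -0.65 against 0.02 over all genes; 0 rose and 10 fell in the 7-library paired fit. Pola1, the catalytic subunit of DNA polymerase alpha, went from 239, 259, 285 and 265 CPM to 114, 112 and 115 CPM (-1.21 ± 0.09, adjusted p = 7.28e-06). Lig1, which joins Okazaki fragments, went from 232, 249.6, 237 and 266 CPM to 134, 115 and 104 CPM (-1.06 ± 0.10, adjusted p = 1.84e-05). Prim2, a primase subunit, went from 74.5 ± 4.79 to 36.96 ± 4.44 CPM (-1.01 ± 0.10, adjusted p = 2.5e-05) and Rfc5, of the clamp loader, from 101 ± 2.01 to 58.6 ± 6.92 CPM (-0.78 ± 0.08, adjusted p = 3.75e-05). In all 4 genes every p210 library was below every untransformed library, and the spread within each group was small beside the difference. The summed level of the list was 7510.0 to 7929.8 CPM in the untransformed and 4463 to 5255 CPM in the p210 libraries. Rrm2 (-0.22 ± 0.13) and Dut (-0.45 ± 0.22), both of nucleotide supply, did not pass.

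E2F motifs lie in the promoter windows of 9 of the 32 replication genes with an entry, and in 3.4% of those of tested genes. All 9 fell, but so did 34 of all 40 replication genes tested (85%), so the falls do not set the genes with a match apart. The letters searched on both strands were TTTGGCGC, TTTCCCGC and TTTCGCGC, whose matches may overlap. The windows below show the genes for the replicative helicase (Mcm5, Mcm6, Mcm7), the origin recognition complex (Orc1) and the polymerase, because they act at the start of replication; each runs 5′ to 3′ along the gene, with matches in capitals:
Mcm5 (chr8:75109336-75109387, + strand): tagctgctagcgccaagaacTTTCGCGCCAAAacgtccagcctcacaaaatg
Mcm6 (chr1:128359725-128359835, - strand): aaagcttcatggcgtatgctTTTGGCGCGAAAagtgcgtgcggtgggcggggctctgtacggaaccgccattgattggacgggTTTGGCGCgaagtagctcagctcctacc
Mcm7 (chr5:138172021-138172068, - strand): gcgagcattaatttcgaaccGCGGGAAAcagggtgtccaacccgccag
Orc1 (chr4:108579407-108579453, + strand): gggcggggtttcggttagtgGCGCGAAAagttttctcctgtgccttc
Pola1 (chrX:93632266-93632313, - strand): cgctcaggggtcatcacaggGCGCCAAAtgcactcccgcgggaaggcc
Mcm6 and Mcm5 hold an overlapping pair of matches on opposite strands, and Mcm6 a further match nearer to its start. Mcm6 fell from 754 ± 23.3 to 448 ± 66.8 CPM (-0.75 ± 0.10, adjusted p = 0.000199), and Mcm5 (-0.67 ± 0.10), Mcm7 (-0.79 ± 0.11) and Orc1 (-0.77 ± 0.15) fell too. Lig1 holds no match in its window. These helicase and origin genes were named after their values were seen.

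Repair and checkpoint genes were lower as well: 27 of 40 fell and 2 rose, with a median of -0.42; 0 rose and 7 fell in the 7-library paired fit. Brca2, which acts in repair by homologous recombination, went from 93.9, 89.2, 92.3 and 89.8 CPM to 42.9, 40.6 and 38.2 CPM (-1.17 ± 0.07, adjusted p = 1.05e-06), the smallest adjusted p of the list. Rad51c fell (-1.51 ± 0.17, adjusted p = 6.21e-05), as did Mdc1, a scaffold at DNA breaks, from 151 ± 10.3 to 78.9 ± 1.78 CPM (-0.94 ± 0.09, adjusted p = 2.99e-05). Fancb, a part of the Fanconi core complex, rose from 6.55 ± 0.609 to 14.3 ± 1.48 CPM (1.12 ± 0.12, adjusted p = 5.01e-05). The helicase Blm (0.20 ± 0.14) and Trp53bp1 (0.12 ± 0.10) did not pass. Of the mitosis and spindle list, 15 of 37 fell and 2 rose, with a median of -0.33 that was -0.16 within the code of lines 1 and 2 and -0.65 within that of line 3. Top2a, which untangles chromosomes, fell from 958 ± 55.7 to 689 ± 30.8 CPM (-0.48 ± 0.07, adjusted p = 0.000372), as did Ccna2 (cyclin A2, -0.79 ± 0.14) and the checkpoint kinase Bub1b (-0.63 ± 0.11). Tpx2 (-0.08 ± 0.12) and Nusap1 (-0.33 ± 0.13, adjusted p = 0.0546) did not pass, though Nusap1 did with DESeq2 (adjusted p = 0.0333), under RLE, upper quartile and library size scaling, with a minimum count of 50 and without untransformed replicate 1 (adjusted p = 0.0266). The CHR letters TTTGAA, searched on both strands in the same windows, lie in 11 of 30 mitosis genes with an entry, of which 5 fell and 6 were not called, and in 13.2% of tested genes. The number of mitosis genes that fell was 7 with the line as a block and 8 without p210 replicate 3; 0 rose and 1 fell in the 7-library paired fit.

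Of 28 G1 genes 6 rose (21.4%) and 9 fell (32.1%), shares to be set beside 21.9% and 17.6% of all tested genes, and 3 rose and 1 fell in the 7-library paired fit. The list holds 7 genes for inhibitors of the G1 kinases, of which 4 rose, 2 fell and 1 did not pass. Cdkn2b, which encodes the CDK4 and CDK6 inhibitor p15, was at 0.539, 0.397, 1.07 and 0.527 CPM in the untransformed and 25.2, 25.97 and 25.7 CPM in the p210 libraries (5.33 ± 0.49, adjusted p = 2.18e-05). Cdkn2a, its neighbour on chromosome 4 that encodes p16 and ARF, was at 2.29, 0.378, 3.71 and 1.96 CPM and 51.2, 85.2 and 70.3 CPM (5.06 ± 0.69, adjusted p = 0.000219). Cdkn1a, which encodes p21, was at 139.8, 162, 126 and 95.7 CPM and 437, 450.5 and 448 CPM (1.77 ± 0.25, adjusted p = 0.000247). The 3 p210 libraries are almost equal in Cdkn2b and Cdkn1a, and the groups do not overlap in any of the 3 genes. Cdkn1b, which encodes p27, was at 49.04, 50.1, 46.6 and 53.9 CPM and 49.8, 81.2 and 78.7 CPM (0.48 ± 0.15, adjusted p = 0.0254), with line 1 inside the untransformed range and the call lost with the line as a block (adjusted p = 0.0904), under library size scaling, in the unpaired fit of the 7 wild-type libraries and without untransformed replicate 1, 2 or 3 or p210 replicate 2 or 3 (adjusted p 0.0528 to 0.117). Cdkn2c, which encodes p18, fell from 30.6, 34.02, 42.5 and 43.4 CPM to 14.8, 13.04 and 10.8 CPM (-1.54 ± 0.22, adjusted p = 0.000271). Cdkn2d, which encodes p19, fell from 75.7, 81.9, 135 and 109 CPM to 35.3, 46.6 and 25.2 CPM (-1.49 ± 0.26, adjusted p = 0.000923). The groups do not overlap in these 2 genes, and Cdkn1c (p57) did not pass (-1.81 ± 0.94). Cdkn1b, Cdkn1c and Cdkn2d were named after their values were seen, to give all 7 inhibitors. Cdk6 itself, intact in all 7 libraries by their labels, was at 970.2, 999, 1213 and 1305 CPM and 576, 606 and 597 CPM (-0.92 ± 0.32, adjusted p = 0.0386). Its call was lost with the line as a block (adjusted p = 0.0921), without untransformed replicate 3 (adjusted p = 0.069) or 4 (adjusted p = 0.0811), without p210 replicate 1 (adjusted p = 0.0868), 2 (adjusted p = 0.0845) or 3 (adjusted p = 0.0867), and with no filter on low counts (adjusted p = 0.0628). Ccnd3 (-0.32 ± 0.21) and Tfdp1 (-0.10 ± 0.08) did not pass.

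Genes of the p53 pathway rose in 18 of 30 cases, and 1 fell, with a median of 0.77; 7 rose and 0 fell in the 7-library paired fit. Trp53 itself did not pass (-0.19 ± 0.11, adjusted p = 0.187). Bax, the pore-forming killer of the BCL2 family, went from 72.7, 66.5, 77.2 and 66.9 CPM to 146, 135 and 154 CPM (1.03 ± 0.11, adjusted p = 4.56e-05). Ccng1, cyclin G1, went from 185, 151, 176 and 146 CPM to 363, 358 and 466 CPM (1.27 ± 0.13, adjusted p = 3.26e-05). Polk, a translesion DNA polymerase, went from 12.4, 11.9, 10.9 and 10.3 CPM to 29.5, 27.8 and 28.3 CPM (1.33 ± 0.14, adjusted p = 3.87e-05). In each of these genes the p210 libraries lie close together and above every untransformed library. Pmaip1 (NOXA) did not pass (0.28 ± 0.23). In the BCL2 family 10 of 17 rose and 2 fell (1 rose and 1 fell in the 7-library paired fit), and the rises took in both arms: the survival gene Bcl2 went from 51.03 ± 10.7 to 125 ± 34.5 CPM (1.29 ± 0.19, adjusted p = 0.000367) and the killer Bak1 from 137 ± 1.05 to 190.4 ± 12.5 CPM (0.48 ± 0.07, adjusted p = 0.000311).

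**Figure D3:**
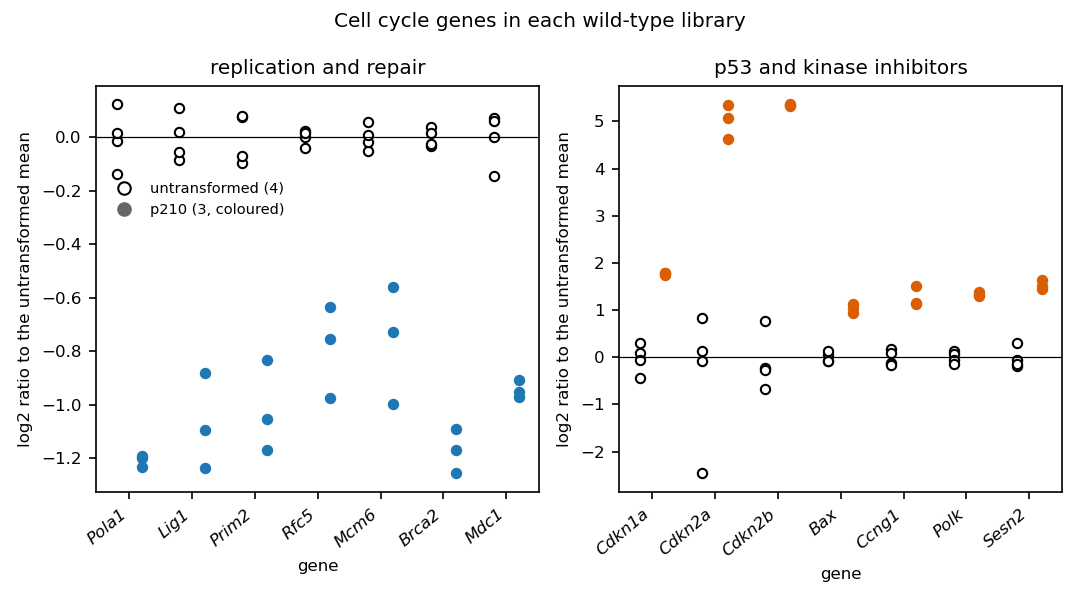
Log2 ratio of each wild-type library to the mean of the 4 untransformed libraries for 7 replication and repair genes and 7 genes of the p53 pathway and of kinase inhibitors that rose, with open circles for untransformed and filled circles for p210 libraries. In the first set every p210 library lies below every untransformed library, and in the second every p210 library lies above.

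Stem and multipotent progenitor genes fell more often than they rose, 16 against 3 of 43, with a median of -0.73 (-1.31 without p210 replicate 1); 0 rose and 6 fell in the 7-library paired fit. Egfl7, a secreted factor of early progenitors and endothelium, went from 38.6, 54.4, 24.5 and 32.6 CPM to 6.06, 10.05 and 6.14 CPM (-2.34 ± 0.27, adjusted p = 7.9e-05). Etv6, a transcription factor that adult stem cells need, fell from 625 ± 38.2 to 376 ± 23.4 CPM (-0.73 ± 0.07, adjusted p = 3.04e-05). Cd27 was at 37.6, 6.65, 24.1 and 41.7 CPM before and 1.7, 0.0336 and 0 CPM after (-5.50 ± 1.19, adjusted p = 0.00378). The groups do not overlap in these 3 genes. The LSK markers Cd34 (-0.70 ± 0.31), Ly6a (-2.02 ± 1.02), Ptprc (0.33 ± 0.18) and Cd48 (0.77 ± 0.36) did not pass, and the Fc receptor gene Fcgr2b rose from 115 ± 38.9 to 471 ± 192 CPM (2.04 ± 0.34, adjusted p = 0.000704). Cd27, Ly6a and Cd48 are outside the rule for named genes. Among surface markers reported on chronic myeloid leukaemia stem cells, 8 of 20 rose and 3 fell, with 3 rising when the line is a block, 5 under library size or upper quartile scaling, 4 without untransformed replicate 2 or p210 replicate 2 or 3 and 5 without untransformed replicate 4; 1 rose and 0 fell in the 7-library paired fit. Cd33, an inhibitory lectin of myeloid cells, went from 107, 59.5, 33.3 and 62.5 CPM to 186, 405 and 319.6 CPM (2.21 ± 0.36, adjusted p = 0.000617), while Il1rap fell, as given above. Cd93 (0.42 ± 0.32) did not pass.

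Mast cell and basophil genes rose in 13 of 30 cases and fell in 5, with a median of 1.07 (0.56 without p210 replicate 3) and a summed level of 5052 to 11115 CPM before and 11123 to 25851 CPM after. Cyp11a1, the enzyme that opens steroid synthesis, went from 13.02, 3.47, 14.6 and 4.17 CPM to 991, 2324 and 3237 CPM (7.96 ± 0.61, adjusted p = 7.65e-06). Mcpt8, a basophil protease, went from 121, 48.6, 12.2 and 25.1 CPM to 1519, 6622 and 2085 CPM (6.05 ± 0.80, adjusted p = 0.000185), highest in line 2. Hdc, which makes histamine, rose from 103 ± 66.02 to 816 ± 356 CPM (2.98 ± 0.54, adjusted p = 0.00123), and the granule membrane protein Cd63 from 219 ± 19.03 to 446 ± 66.5 CPM (1.03 ± 0.11, adjusted p = 3.86e-05). No group overlaps in these 4 genes. The high-affinity IgE receptor chain Fcer1a (-0.80 ± 0.47) and Rab27b (-0.05 ± 0.46) did not pass, and 4 rose and 3 fell in the 7-library paired fit. Mcpt4, high in untransformed replicate 3 as given above, was at 0.0314, 0.202 and 0.0508 CPM with p210 (adjusted p = 0.0113), and its call was lost under limma-voom (adjusted p = 0.56). Hdc and Mcpt4 were named after their values were seen.

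Megakaryocyte and platelet genes fell in 12 of 27 cases and rose in 2, with a median of -1.73. Within the code of lines 1 and 2 the median was 0.12, with 3 rising and 6 falling, and within that of line 3 it was -2.96. Selp, the P-selectin of platelet granules, went from 87.1, 219.9, 308 and 293 CPM to 1.79, 2.72 and 0.254 CPM (-7.09 ± 0.74, adjusted p = 4.63e-05). Treml1, a receptor of the same granules, went from 17.2, 13.97, 104 and 55.1 CPM to 2.23, 1.48 and 0.355 CPM (-5.09 ± 0.90, adjusted p = 0.00105). Zfpm1, the GATA1 cofactor FOG1, fell from 237 ± 84.6 to 58.1 ± 18.1 CPM (-2.03 ± 0.32, adjusted p = 0.000534). Before transformation replicate 3 held the most Treml1 and Zfpm1. Every p210 library was below every untransformed library in the 3 genes. With the line as a block 4 fell with a median of -1.02, and 1 rose and 1 fell in the 7-library paired fit. Pf4 and Plek (0.04 ± 0.26) did not pass. In the erythroid list 7 of 15 fell and 1 rose. Gata1, the master transcription factor of red cells, went from 27.8, 11.99, 41.8 and 23.7 CPM to 6.78, 4.54 and 0.457 CPM (-2.73 ± 0.75, adjusted p = 0.0128). Its groups do not overlap, and the call was lost with the line as a block (adjusted p = 0.0865). Tfrc, the transferrin receptor, did not pass (-0.17 ± 0.19). The number of erythroid genes that fell was 3 with the line as a block and 4 without p210 replicate 2 or 3; 0 rose and 0 fell in the 7-library paired fit.

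Of 44 neutrophil and monocyte genes 9 rose (20.5%), close to the 21.9% of all tested genes, and 2 fell (4.55%, against 17.6%). Their median was 0.81, but 0.35 without p210 replicate 2, 0.45 without untransformed replicate 3, -0.05 for the libraries on 1 flow cell and 1.32 with the line as a block. The summed level ran over 1043 to 13237 CPM in the untransformed libraries, where replicate 3 was lowest, and 6058 to 12657 CPM in the p210 libraries. Ccr2, the monocyte chemokine receptor, went from 291, 287, 88.1 and 200.4 CPM to 640.1, 943 and 957 CPM (1.97 ± 0.41, adjusted p = 0.00316). Fcer1g, the shared signalling chain of Fc receptors, went from 106 ± 48.7 to 401 ± 73.7 CPM (1.93 ± 0.35, adjusted p = 0.0013) and Fcgr3 from 81.9 ± 53.4 to 389 ± 121 CPM (2.25 ± 0.52, adjusted p = 0.00508). Lyz2 (0.92 ± 0.65) and Ctsg (1.74 ± 0.89) did not pass. Mpo fell in the fit of all libraries (-3.99 ± 1.45, adjusted p = 0.0464), with p210 values of 32.1, 409 and 51.5 CPM that overlap the untransformed range. Its call was lost with the line as a block (adjusted p = 0.282), under limma-voom (adjusted p = 0.086), and without untransformed replicate 1, 2 or 4, p210 replicate 1 or 3 or KO p210 replicate 2 (adjusted p 0.0586 to 0.132). The number that rose was 4 with the line as a block, and 0 rose and 0 fell in the 7-library paired fit. Of 17 lymphoid genes 5 rose and 0 fell, with 1 rising with the line as a block, 2 under limma-voom, 3 without untransformed replicate 1 or 3 or 4; 1 rose and 0 fell in the 7-library paired fit. The defining B cell marker Pax5 and T cell marker Cd3e were not among the genes tested. In the dendritic cell and MHC class II list 3 rose and 3 fell of 17 (17.6% each), with 1 rising when the line is a block. In the 7-library paired fit 0 rose and 2 fell. H2-DMa, which loads peptides on class II, fell from 69.4, 60.3, 45.6 and 60.1 CPM to 14.3, 9.21 and 5.94 CPM (-2.58 ± 0.29, adjusted p = 7.71e-05), and H2-Ab1 did not pass (0.03 ± 0.98).

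**Figure D4:**
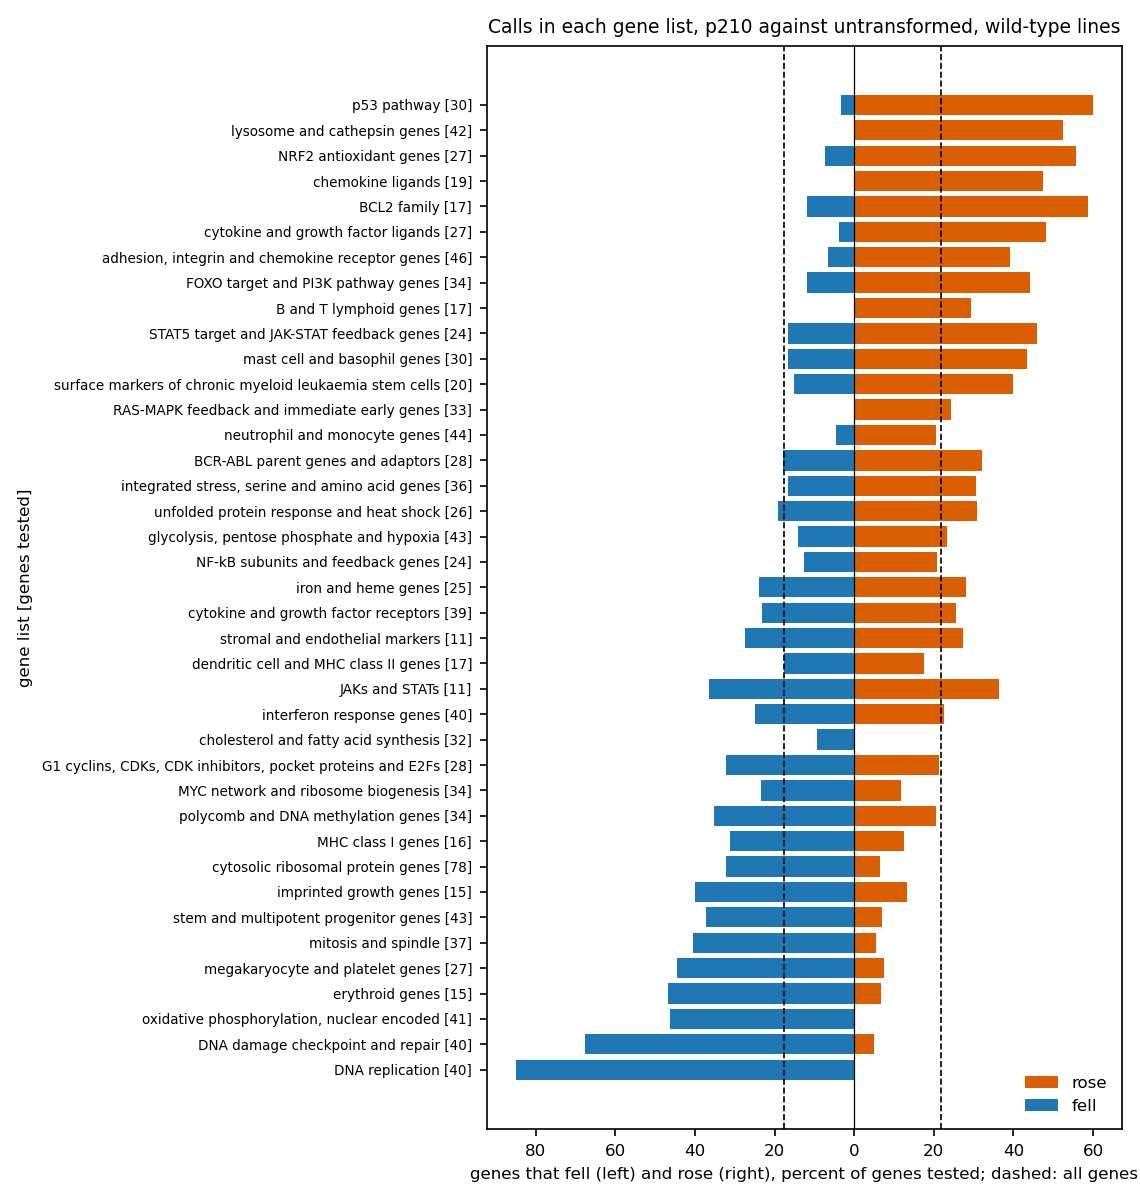
Share of tested genes that rose (bars to the right) and fell (bars to the left) in each of the 39 gene lists with at least 11 genes tested, in percent, with the number tested in brackets. The dashed lines mark the shares over all tested genes, 21.9% higher and 17.6% lower; DNA replication (85%) and repair (67.5%) reach farthest to the left, and p53 (60%) and the BCL2 family (58.8%) farthest to the right.

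The gene lists hold 1234 genes, of which 1114 were tested. Every list count is to be set beside the shares over all tested genes, 21.9% higher and 17.6% lower. Where a list had 0 genes called in a direction by edgeR, DESeq2 called 0 there as well and limma-voom at most 1, and an unadjusted p under 0.05 was reached by at most 1 gene of a list. Counts of 3 or fewer in a list moved over 0 to 6 when 1 library was left out, and nothing rests on them. The 7-library paired fit called 0 genes in 1 or both directions of many lists; lists with 0 rising held 0 to 9 members higher at an unadjusted p under 0.05, and lists with 0 falling 0 to 18 members lower.

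Adhesion genes rose in 18 of 46 cases and fell in 3, with 11 rising when the line is a block; 3 rose and 0 fell in the 7-library paired fit. Itgav, an integrin chain for vitronectin and fibronectin, went from 46.2, 47.7, 44.1 and 46.02 CPM to 85.1, 77.4 and 98.04 CPM (0.92 ± 0.09, adjusted p = 3.61e-05). Ccr1, a receptor for CCL3 and CCL5, went from 26.9, 20.7, 4.17 and 16.8 CPM to 139, 240.2 and 263 CPM (3.65 ± 0.45, adjusted p = 0.000131), and Pecam1 from 253 ± 109 to 617 ± 119 CPM (1.29 ± 0.28, adjusted p = 0.00372). No group overlaps in these genes. Itga6 (-0.16 ± 0.23) and Itgb1 (-0.25 ± 0.14) did not pass. Of 40 interferon response genes 9 rose (22.5%) and 10 fell (25%), not far from the 21.9% and 17.6% of all tested genes, with a median of -0.34 (-0.61 within the code of lines 1 and 2). Ifitm1, which blocks viral entry, rose from 1080.0, 1229, 553 and 983 CPM to 1798, 2553 and 2149 CPM (1.17 ± 0.22, adjusted p = 0.00159), and Psmb9, a subunit of the immunoproteasome, fell from 97.4, 103, 73.97 and 86.3 CPM to 42.7, 48.8 and 37.8 CPM (-1.06 ± 0.15, adjusted p = 0.000247). Ddx58 (RIG-I) did not pass (0.22 ± 0.20). The number that rose was 5 with the line as a block, 5 under library size or upper quartile scaling, 4 without untransformed replicate 4 and 5 without untransformed replicate 3 or p210 replicate 3; 0 rose and 1 fell in the 7-library paired fit.

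Antioxidant genes under NRF2 rose in 15 of 27 cases, with a median of 1.27, and fell in 2. The median was 0.57 without p210 replicate 3 and 0.56 within the code of lines 1 and 2, and 3 rose and 0 fell in the 7-library paired fit. Hmox1, which degrades heme, went from 70.4, 46.6, 34.9 and 36.4 CPM to 415, 193 and 880.0 CPM (3.40 ± 0.53, adjusted p = 0.0005). Slc7a11, the cystine importer, went from 6.56, 6.95, 1.02 and 2.08 CPM to 32.5, 62.5 and 165 CPM (4.39 ± 0.73, adjusted p = 0.000722). Gclc, the first enzyme of glutathione synthesis, rose from 91.3 ± 9.42 to 262 ± 96.4 CPM (1.52 ± 0.24, adjusted p = 0.000544). Hmox1 and Slc7a11 were highest in line 3, and the groups do not overlap. The antioxidant response letters TGACNNNGC, searched on both strands, lie in the windows of 6 of 23 members with an entry and in 14% of those of tested genes. Of these 6 members 2 rose and 4 were not called. Txnrd1 (0.10 ± 0.23) and Gpx1 (0.08 ± 0.18) did not pass. Of the pentose phosphate genes, which supply NADPH, Pgd rose from 209.9 ± 39.4 to 417 ± 85.7 CPM (0.99 ± 0.16, adjusted p = 0.000564) and Taldo1 from 264 ± 32.6 to 515 ± 109 CPM (0.96 ± 0.15, adjusted p = 0.000394). They belong to a list in which 10 of 43 glycolysis, pentose phosphate and hypoxia genes rose and 6 fell, among the latter the hexokinase Hk1 (-0.58 ± 0.09, adjusted p = 0.000324). These are 23.3% and 14% of the list, beside 21.9% and 17.6% of all tested genes. The number that rose was 6 without p210 replicate 2, and 1 rose and 2 fell in the 7-library paired fit. Pkm (0.24 ± 0.16) and Aldoa (0.17 ± 0.21) did not pass.

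Lysosome and cathepsin genes rose in 22 of 42 cases and fell in 0, with a median of 0.73 (0.43 within the code of lines 1 and 2); 14 rose with the line as a block, and 2 rose and 1 fell in the 7-library paired fit. Mcoln1, the lysosomal calcium channel, went from 38.4, 37.8, 32.5 and 34.4 CPM to 54.6, 55.98 and 64.2 CPM (0.70 ± 0.10, adjusted p = 0.000233). Every p210 library exceeded every untransformed library, as for Cd63 above, which is also a lysosomal membrane protein. Ctsb (0.98 ± 0.58) and Psap (0.76 ± 0.50) did not pass, and in both p210 replicate 2 was low: Ctsb was at 2298, 537 and 1337 CPM and Psap at 2649.9, 718 and 1699 CPM in the 3 lines. The CLEAR motif TCACGTGA, bound by TFEB and its relatives and equal on both strands, lies in the windows of 4 of 32 members with an entry and in 1.72% of those of tested genes. Of these 4 members 3 rose and 1 was not called, beside 52.4% of the whole list that rose. The windows of the 3 members with a match that rose are shown to set them side by side, with the motif in capitals:
Ctsa (chr2:164833740-164833772, + strand): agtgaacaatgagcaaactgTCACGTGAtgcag
Ctsd (chr7:142387899-142387946, - strand): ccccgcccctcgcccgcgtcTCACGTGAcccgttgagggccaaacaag
Mcoln1 (chr8:3500453-3500500, + strand): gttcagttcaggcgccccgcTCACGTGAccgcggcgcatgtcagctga
Ctsd, the aspartic protease cathepsin D, was at 663, 650.4, 435 and 437 CPM before and 1783, 1872 and 2328 CPM after (1.87 ± 0.33, adjusted p = 0.00101). Ctsa, the protective protein of neuraminidase, rose (0.88 ± 0.16, adjusted p = 0.001). Both genes were named after their values were seen.

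Of 36 stress genes of the ATF4 branch 11 rose (30.6%) and 6 fell (16.7%), and 1 rose and 1 fell in the 7-library paired fit. Ddit4, an inhibitor of mTORC1, went from 19.9, 16.3, 16.9 and 15.2 CPM to 132, 178 and 57.7 CPM (2.85 ± 0.33, adjusted p = 8.37e-05). Vldlr, a lipoprotein receptor, went from 92.6, 116, 79.1 and 85.98 CPM to 10.6, 4.67 and 1.22 CPM (-4.07 ± 0.59, adjusted p = 0.000326). Both genes separate the groups, and the p210 lines differ from each other in each, line 3 being lowest. Atf4 itself (-0.04 ± 0.12) did not pass. The composite letters TGATGCAA, read by ATF4 with a C/EBP partner and searched on both strands, lie in the windows of 7 of 31 members with an entry and in 0.698% of those of tested genes. Of these 7 members 2 rose, 1 fell (Vldlr) and 4 were not called. In the unfolded protein and heat shock list 8 of 26 rose (30.8%) and 5 fell (19.2%), against 21.9% and 17.6% of all tested genes. With the line as a block 5 rose, and under library size or upper quartile scaling 8 fell. In the 7-library paired fit 1 rose and 1 fell. Dnajb1, an HSP40 co-chaperone, fell from 104, 123, 103 and 117 CPM to 62.8, 65.3 and 61.8 CPM (-0.82 ± 0.07, adjusted p = 1.81e-05), and Xbp1 rose from 148 ± 8.29 to 291 ± 20.5 CPM (0.98 ± 0.15, adjusted p = 0.000369). Calr (0.46 ± 0.21) did not pass.

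Nuclear genes of oxidative phosphorylation fell in 19 of 41 cases and rose in 0, by small amounts, with a median of -0.19 (-0.30 under library size scaling). Ndufa4 fell farthest of the named members, from 247, 250.4, 285 and 241 CPM to 130.1, 158 and 114 CPM (-0.93 ± 0.12, adjusted p = 0.000188), and Sdha, of complex II, went from 440.2 ± 10.2 to 322 ± 30.99 CPM (-0.45 ± 0.07, adjusted p = 0.000386). Atp5b (-0.11 ± 0.08) and Cox4i1 (-0.07 ± 0.06) did not pass, though Cox4i1 passed under library size (adjusted p = 0.0207) and upper quartile scaling (adjusted p = 0.047). With the line as a block 11 fell, and 0 rose and 0 fell in the 7-library paired fit. Of 7 mitochondrially encoded genes 0 passed edgeR's test in either direction, 0 reached an unadjusted p under 0.05 and 0 passed with DESeq2; 2 fell without p210 replicate 3. Cholesterol and fatty acid genes changed in few cases, with 3 of 32 falling and 0 rising; 0 without p210 replicate 3 and 6 without p210 replicate 2 fell, and 0 rose and 1 fell in the 7-library paired fit. Scd2, a fatty acid desaturase, did not pass (-0.03 ± 0.47).

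Cytosolic ribosomal protein genes fell in 25 of 78 cases and rose in 5, with a median of -0.17 (-0.29 under library size scaling); 0 rose and 0 fell in the 7-library paired fit. The number that fell was 39 under library size scaling, 14 with the line as a block and 16 without p210 replicate 3; the number that rose was 3 with the line as a block, 2 without p210 replicate 2 and 3 without untransformed replicate 2 or 4. Rps3a1 fell from 149 ± 10.7 to 108 ± 6.96 CPM (-0.47 ± 0.07, adjusted p = 0.000513), while Rplp1 (-0.07 ± 0.13) and Rps9 (-0.15 ± 0.10) did not pass. Of 34 MYC network and ribosome biogenesis genes 8 fell (23.5%) and 4 rose (11.8%), against 17.6% and 21.9% of all tested genes. Mnt, a repressor that competes for the MYC partner MAX, fell from 146 ± 17.8 to 83.95 ± 4.52 CPM (-0.80 ± 0.11, adjusted p = 0.000271), and Mxd4, of the same family, rose from 95.5 ± 15.4 to 138 ± 2.02 CPM (0.53 ± 0.12, adjusted p = 0.00561). Ncl, nucleolin, did not pass (-0.19 ± 0.11). With the line as a block 2 fell and 2 rose, and 0 rose and 0 fell in the 7-library paired fit; the number that fell was 5 without p210 replicate 3, and the number that rose was 2 under library size scaling and 2 without p210 replicate 1.

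Chromatin genes with a role in silencing fell in 12 of 34 cases (35.3%) and rose in 7 (20.6%); 0 rose and 3 fell in the 7-library paired fit. Ezh2, the methyltransferase of polycomb complex 2, went from 175, 167, 162 and 153 CPM to 104, 102 and 104 CPM (-0.67 ± 0.06, adjusted p = 1.66e-05), with p210 libraries almost equal. Dnmt1, the maintenance DNA methyltransferase, fell from 718 ± 35.1 to 468 ± 53.001 CPM (-0.62 ± 0.09, adjusted p = 0.000219), and Rbbp4, a histone-binding subunit, from 585 ± 27.4 to 413 ± 12.7 CPM (-0.50 ± 0.07, adjusted p = 0.000217). Neither Idh1 (0.48 ± 0.25) nor Idh2 (-0.25 ± 0.09, adjusted p = 0.0514) passed, though Idh2 did with DESeq2 (adjusted p = 0.018), with limma-voom (adjusted p = 0.0448), under RLE (adjusted p = 0.0312), upper quartile (adjusted p = 0.0118) and library size scaling (adjusted p = 0.00984), with a minimum count of 50 and without untransformed replicate 3 or 4 or p210 replicate 2. Imprinted growth genes fell in 6 of 15 cases and rose in 2. Dlk1 was at 3.59, 6.82, 57.3 and 34.05 CPM in the untransformed and 0.126, 0.0672 and 0.0508 CPM in the p210 libraries (-8.17 ± 1.46, adjusted p = 0.00246). Rian, a maternally expressed RNA of the same imprinted domain on chromosome 12, was at 0.0898, 9.5, 33.5 and 45.5 CPM before and had no count in any p210 library, which with a floor of 3 counts for the group is at least 633-fold lower. Both are near the floor with p210 in all 3 lines, and before transformation line 1 held the least of each. The call of Rian (adjusted p = 0.037) was lost without untransformed replicate 2 (adjusted p = 0.0555), 3 (adjusted p = 0.0621) or 4 (adjusted p = 0.0684) and without p210 replicate 1 (adjusted p = 0.0749), 2 (adjusted p = 0.0784) or 3 (adjusted p = 0.0757), and that of Dlk1 under limma-voom (adjusted p = 0.0751). The number of imprinted genes that fell was 2 under limma-voom, 1 without p210 replicate 3, 2 without untransformed replicate 2 or p210 replicate 1 or 2 and 3 without untransformed replicate 4; 1 rose and 0 fell in the 7-library paired fit.

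The largest rises were mostly of genes that untransformed lines hardly express. Ranking by fold change favours genes near 0 in 1 group, so these low levels follow in part from how the genes were picked. Tcrg-C1, a constant segment of the T cell receptor gamma chain, was at 0, 0, 0.0549 and 0.0251 CPM before and 162, 21.1 and 128 CPM after, a ratio of pooled counts of 5165 (95% exact interval 1767 to 25053), from 3 counts before (adjusted p = 1.66e-05). Lef1, a partner of beta-catenin, had no count in any untransformed library and was at 21.5, 1.55 and 3.45 CPM with p210, at least 496-fold higher (adjusted p = 0.00171). Crisp1, a secreted protein of the epididymis, was at 0 to 0.11 CPM before and 106, 46.2 and 116 CPM after (10.99 ± 1.82, adjusted p = 0.00071). Tcrg-C1 and Crisp1 were high in all 3 lines, and Lef1 mainly in line 1. Pdcd1, the receptor PD-1, was at 0.0449 to 0.11 CPM before and 295, 40.7 and 10.2 CPM after (10.56 ± 1.22, adjusted p = 8.3e-05). Gpc6, a glypican, was at 0 to 0.11 CPM before and 119, 80.7 and 6.55 CPM after (10.22 ± 1.18, adjusted p = 8.17e-05). Sh2d1b2, an adaptor of SLAM receptors, was at 8.7, 2.12 and 64.7 CPM with p210, a ratio of 1002 (95% exact interval 342 to 4866) from 3 counts before (adjusted p = 0.000261). The rule that named these 3 genes required every p210 library to exceed the untransformed range. Their levels spread widely among the lines. Under limma-voom the calls of Crisp1 (adjusted p = 0.0676), Pdcd1 (adjusted p = 0.0506) and Gpc6 (adjusted p = 0.0541) were lost.

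The largest falls, after Rian, took genes that every untransformed line expressed to near the floor, which the same ranking favours. Arhgap32, a GTPase-activating protein, went from 58.9, 69.1, 21.3 and 28.5 CPM to 0, 0 and 0.0508 CPM (adjusted p = 8.23e-06), with 1 count left over the 3 p210 libraries and a ratio of pooled counts of 3694 (95% exact interval 663 to 145913). Fam181b went from 4.54, 5.95, 5.71 and 6.82 CPM to no count, at least 160.3-fold lower (adjusted p = 0.000102). Dock1, an activator of RAC, went from 6.74, 13.3, 9.83 and 15.5 CPM to 1 count in all, a ratio of 982 (95% exact interval 176 to 38794) (adjusted p = 0.000107). No p210 library kept more than 0.0508 CPM of any of these 3 genes. Adgrl4, an adhesion receptor, went from 301, 565, 179 and 247 CPM to 0.314, 0.874 and 0.203 CPM (-9.37 ± 0.67, adjusted p = 4.28e-06). Sfrp2, a secreted WNT modulator, went from 25.4, 15.4, 32.1 and 28.5 CPM to 0.188, 0.134 and 0 CPM (-7.71 ± 0.76, adjusted p = 3.16e-05). Clca3a1 went from 37.6, 63.5, 646 and 233 CPM, highest in replicate 3, to 0.816, 1.38 and 0.102 CPM (-8.23 ± 1.17, adjusted p = 0.000273).

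The 3 p210 lines also differed from each other. Of 8107 named genes with at least 20 CPM in 1 p210 library, 181 ranged over 3 or more on the log2 scale (CPM plus 1) among the 3 lines, and 87 of these were highest in line 1, 23 in line 2 and 71 in line 3. Each line is 1 library, so these ranges carry no test. Emx2, a homeobox factor, was at 0.314, 0.47 and 201 CPM in lines 1, 2 and 3, and Dkk3, a secreted glycoprotein, at 0.0942, 0.0336 and 92.7 CPM, so that lines 1 and 2 held almost none. Emx2 separated the groups all the same and was called between them (adjusted p = 0.00339), a call lost under limma-voom (adjusted p = 0.286). Csn2, beta-casein, was at 115, 0.0336 and 0.102 CPM and so was held by line 1; its call (adjusted p = 0.00666) was lost without that library (adjusted p = 0.484) and under limma-voom (adjusted p = 0.244). Line 3 held the most Gzmb, as given above. Hoxa9 was at 62.4, 29.5, 17.2 and 19.5 CPM before and 81.7, 8.03 and 0 CPM after, and Mecom (EVI1) at 16.8, 34.5, 16.1 and 19.4 CPM before and 93.5, 31.1 and 0.558 CPM after. These 2 stem cell factors were highest in line 1 and near or at 0 in line 3, and neither passed the test between the groups. Vill was at 15.7, 72.4, 3.6 and 0.0502 CPM before and 0.345, 90.6 and 0.152 CPM after. It was highest both times in line 2 and lower after transformation in lines 1 and 3. Igfbp5, an IGF-binding protein, was in the same way highest in line 1, at 19.99, 0.831, 0.357 and 0.151 CPM before and 68.03, 1.88 and 0 CPM after. Slc15a2, a peptide transporter, was highest in line 3 among the 3 lines, at 0.988, 0.0944, 44.6 and 45.2 CPM before and 0.0314, 0.134 and 55.1 CPM after.

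**Figure D5:**
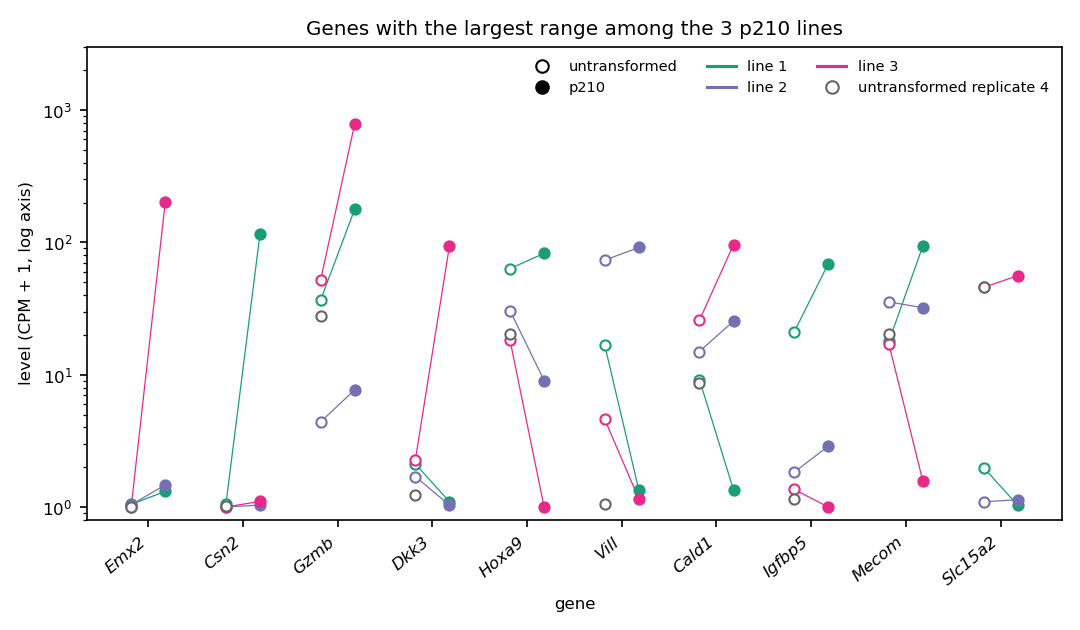
Level of the 10 genes with the largest range among the 3 p210 libraries (CPM plus 1, log axis), with open symbols for untransformed and filled symbols for p210 libraries, coloured by line; untransformed replicate 4, without a partner, is grey. Emx2 and Dkk3 are high in line 3 alone, Csn2 in line 1 alone, and Hoxa9 and Mecom are highest in line 1 and lowest in line 3.

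The same contrast in Cdk6 knockout lines, which shares no library with the wild-type contrast, called 5395 of 14512 genes (37.2%). Of the genes called in wild-type lines 3613 were also called in the same direction in knockout lines, 63.1% of the wild-type and 67% of the knockout calls, and 12 were called in opposite directions. The difference of the changes, tested as an interaction, was called for 5 genes (0.0345%), and 2041 had an unadjusted p under 0.05. In all 5 the change was more positive in wild-type lines. Slc43a1, an amino acid transporter, went from 38.4, 39.5, 35.6 and 40.4 CPM to 8.57, 7.22 and 2.54 CPM in wild-type lines (-2.65 ± 0.38, adjusted p = 0.000305) and had a log2 fold change of -7.06 ± 0.47 in knockout lines, a difference of 4.41 ± 0.58 (adjusted p = 0.0306). Arhgef5, a guanine nucleotide exchange factor, did not pass in wild-type lines (-0.44 ± 0.47) and fell in knockout lines (-7.77 ± 0.73), a difference of 7.33 ± 0.88 (adjusted p = 0.0306). Ifitm2 rose in wild-type lines, from 231, 248, 218 and 257 CPM to 309.7, 306 and 295 CPM (0.35 ± 0.07, adjusted p = 0.00352), and fell in knockout lines (-0.41 ± 0.07), a difference of 0.76 ± 0.11 (adjusted p = 0.0409). Nxpe5 did not pass in wild-type lines (-0.49 ± 0.21), against -2.58 ± 0.21 in knockout lines (adjusted p = 0.0409 for the difference of 2.08 ± 0.30). Tceal8 fell from 26.7 ± 7.3 to 8.57 ± 0.754 CPM in wild-type lines (-1.64 ± 0.50, adjusted p = 0.0227), a call lost with the line as a block (adjusted p = 0.123) and without untransformed replicate 4 (adjusted p = 0.0589) or p210 replicate 2 (adjusted p = 0.0551) or 3 (adjusted p = 0.0611), and its difference was 7.01 ± 0.89 (adjusted p = 0.0306). One knockout library, labelled KO p210 replicate 2, has Cdk6 at 578 CPM, against 163 to 326 CPM in the other knockout p210 libraries. The wild-type p210 libraries have 576 to 606 CPM, so in this gene it goes against its label. In Arhgef5 (0.0386 CPM), Tceal8 (0 CPM), Slc43a1 (0.0772 CPM) and Ifitm2 (223 CPM) it was below every wild-type p210 library. In Nxpe5 (26.6 CPM) it was within their range. These genes were called with this library included, and its identity was not tested. Without this library 0 differences were called by edgeR, with 1815 at an unadjusted p under 0.05, and with the line as a block 0, with 1142. With 1 wild-type library left out, 0 were called without untransformed replicate 2 or 4, 1 without untransformed replicate 3, 8 without untransformed replicate 1, 6 without p210 replicate 1, 26 without p210 replicate 2 and 46 without p210 replicate 3. DESeq2 called 399 over all libraries. Side by side, interferon response genes numbered 9 rises and 10 falls in wild-type and 1 and 23 in knockout lines, lysosome genes 22 and 0 against 8 and 3, and mitosis genes 2 and 15 against 8 and 2; these list counts were not tested against each other.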

How the data were processed

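Bulk mRNA-seq (50 bp single-end reads, SENSE mRNA-Seq kit, per the labels) of 14 mouse HPC-LSK libraries was used, 7 of them from Cdk6 wild-type lines. The authors deposited raw counts per gene made with featureCounts 1.5.1, reverse-stranded, over exons of GENCODE M13, per the file headers; Trimmomatic and STAR on GRCm38 are named in the submitters' processing notes, whose versions are not given in the sources used here. Each file also has an unnamed column that the authors deposited, whose values are in the range of TPM; it was not used.

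The counts were fitted with edgeR 4.0.16 in R 4.3.3 (quasi-likelihood, robust, TMM scaling, filterByExpr with a minimum count of 10) over all 14 libraries in 4 groups, which share 1 estimate of spread, with Benjamini-Hochberg adjustment over 14512 genes and calls at an adjusted p under 0.05. The contrast was p210 minus untransformed in wild-type lines, and the difference from the same contrast in knockout lines was an interaction. Every adjusted p in the text is from this fit unless another is named, and n is 4 untransformed and 3 p210 libraries. Folds against a group without counts use a floor of 3 counts over the group, which is 0.0198 CPM untransformed and 0.0369 CPM with p210, and cover counting error only.

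The descriptions pair 3 lines, and deviations from the group means correlated at 0.181, 0.151 and 0.103 within lines, so counts with the line as a block are given beside the lists, over all 14 libraries where it changes them and over the 7 wild-type libraries (the 7-library paired fit). On simulated data of 14512 genes, with 100 changed at each fold and no line effect, 49% of 2-fold and 75.5% of 4-fold changes were called. There were 5 false calls, and these rates need not hold in the data, where 39.5% of genes were called. DESeq2 1.42.0, limma-voom 3.58.1, other scalings and filters, and leaving out libraries were tried.

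The members and gene lists were chosen with earlier results of these data known. Named genes were Bcr, Abl1 and Cdk6; the 10 largest changes in each direction without overlap, with the same sign in 3 lines and at least 5 CPM; per list up to 4 called members with the smallest adjusted p and 2 members not called with the highest level; up to 5 genes per direction for the difference between genotypes; and the 10 genes with the largest range among p210 libraries. Some genes that this rule names are not reported here. Other genes are said to be named after their values were seen. Motifs were searched in the 250 bases before each start in RefSeq's promoter table, build GRCm38.p6.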

Additional observations from a re-analysis of the deposited data

Results flagged for a closer look

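Within the 4 untransformed wild-type libraries, 1 library stood apart by Dixon's test at its 95% critical value in 5 of the 204 genes named in the text. Chance flags about 1 in 20 groups. The gap to the nearest library, as a share of the group's whole range, was 0.985 for Mcpt4 and 0.851 for Atp5b, both highest in untransformed replicate 3, and 0.869 for Pmaip1, lowest in the same library. With untransformed replicate 1 highest, it was 0.902 for Taldo1 and 0.966 for Igfbp5.

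The change with p210 differed between wild-type and knockout lines in 5 genes, tested as an interaction over all 14 libraries. The difference of the log2 fold changes, wild-type minus knockout, was 7.33 for Arhgef5, 7.01 for Tceal8, 4.41 for Slc43a1, 2.08 for Nxpe5 and 0.76 for Ifitm2. None of these 5 passed with the line as a block.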

How the results depend on the processing

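Over 22 alternatives in all, genes higher numbered 2004 to 3370 and genes lower 1661 to 3471, except in the fits of the 7 wild-type libraries with the line as a block, of the code of line 3 and of 1 flow cell. The line as a replicate block over all 14 libraries gave 1661 genes lower, and over the 7 wild-type libraries 348 higher and 246 lower, of which 253 and 140 were at least 2-fold. Within the code shared by lines 1 and 2, 2004 were higher, 857 of them at least 2-fold. Within the other code, with 1 p210 library assumed to vary like the other groups, 1003 were higher and 563 lower, 816 and 403 at least 2-fold. With the libraries read on 1 flow cell (3 against 1 wild-type libraries) 62 were higher and 50 lower, 59 and 43 at least 2-fold. These fits hold fewer samples or residual degrees of freedom. Leaving out 1 library gave 2521 to 3075 higher and 2038 to 2497 lower, and at least 2-fold 1159 to 1447 and 612 to 766.

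The difference between wild-type and knockout lines was called for 5 genes in the report, 399 by DESeq2, 3 under library size scaling, 0 to 46 with 1 library left out, 32 and 0 within the codes, 0 on 1 flow cell, 0 with the line as a replicate block, and 0 with KO p210 replicate 2 and untransformed replicate 3 both left out, an alternative chosen after seeing the data. The cause was not tested.

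Of 135 called genes in the text, 0 of the 133 tested lost the call with DESeq2, 11 with limma-voom, 5 with the replicate block over all libraries, 91 with the block over the 7 wild-type libraries, 112 on 1 flow cell, and 12 and 45 within the codes, and all tested kept their direction in each of the 22 alternatives. Of 69 genes in the text that were not called, 28 were called in at least 1 alternative: 3 with DESeq2, 1 with limma-voom, 10 under library size scaling and 4 under upper quartile scaling. Leaving out untransformed replicate 1 called Alas1, Cd48, Ctsg, Idh1, Igfbp5 and Nusap1, leaving out replicate 3 Akt1, B2m, Idh2, Nxpe5 and Rrm2, replicate 4 Idh2, p210 replicate 1 Dkk3 and Nxpe5, replicate 2 Ccnd3, Dkk3, Idh2 and Tgfb1, replicate 3 Cd93 and Slc15a2 and KO p210 replicate 2 Dkk3. The code of lines 1 and 2 called Akt1, Cd34, Cd93, Cdkn1c, Ly6a and Rrm2. The code of line 3 called Dkk3, Fcer1a, Hoxa9 and Mecom, with Mecom at -5.01, against 0.94 over all libraries. That code holds 1 wild-type p210 library. Dkk3, Hoxa9 and Mecom were picked by a range that includes this library, so their calls there are no further support. Genes under the floors of 0.0198 and 0.0369 CPM cannot be told from 0 at this depth.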

Other observations

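Of 25 heme and iron genes 7 rose (28%) and 6 fell (24%), shares to be set beside 21.9% and 17.6% of all tested genes, and 2 rose and 0 fell in the 7-library paired fit. Ppox, the enzyme that makes protoporphyrin, went from 19.4, 23.8, 20.8 and 22.1 CPM in the untransformed to 40.3, 48.8 and 45.5 CPM in the p210 libraries (1.06 ± 0.11, adjusted p = 3.75e-05), and Urod, an earlier enzyme of the same route, went from 67.4 ± 3.7 to 46.8 ± 2.65 CPM (-0.53 ± 0.07, adjusted p = 0.000219). Abcb10, a mitochondrial transporter of the heme route, fell from 102 ± 16.1 to 44.3 ± 11.6 CPM (-1.21 ± 0.18, adjusted p = 0.000369). Alas1, which opens the route, did not pass (1.13 ± 0.54).

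Among NF-kB genes 5 of 24 rose and 3 fell (20.8% and 12.5%), beside 21.9% and 17.6% of all tested genes. In the 7-library paired fit 0 rose and 0 fell. The subunit gene Rela went from 121 ± 9.55 to 85.2 ± 6.28 CPM (-0.51 ± 0.08, adjusted p = 0.000528) and Nfkb1 from 197 ± 8.26 to 267 ± 30.9 CPM (0.44 ± 0.09, adjusted p = 0.0026), in opposite directions. Bcl3, a nuclear cofactor of NF-kB, went from 31.8, 41.6, 48.2 and 41.6 CPM to 5.93, 1.75 and 6.55 CPM (-3.11 ± 0.49, adjusted p = 0.000521). The number that rose was 3 without p210 replicate 2 or 3. Of 16 MHC class I and peptide loading genes 2 rose (12.5%) and 5 fell (31.2%), with 2 falling without untransformed replicate 2 or p210 replicate 1 or 3. Beside Psmb9, the immunoproteasome subunit Psmb10 fell from 64.9 ± 4.16 to 33.2 ± 7.46 CPM (-0.97 ± 0.15, adjusted p = 0.0005), while B2m (-0.26 ± 0.16) and H2-K1 (-0.15 ± 0.21) did not pass.

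Markers of other cells were low or mixed. The summed level of 11 tested stromal and endothelial markers and their untested members was 564 to 857 CPM before and 738 to 902 CPM after, with 3 rising and 3 falling. In the eosinophil list 2 of 7 rose, of which Alox15, a lipoxygenase, went from 0.359, 0.0944, 0.0549 and 0.151 CPM to 3.77, 33.8 and 8.68 CPM (6.62 ± 0.88, adjusted p = 0.00019).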
